A study of Mus musculus with 48 samples.

Results

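The clustered histone genes are the replication-dependent histone genes of the mouse. They code for the linker histone H1 and the core histones H2A, H2B, H3 and H4. Most of these genes lie side by side in the Hist1 to Hist3 loci, and Hist4 holds 1 gene. They were chosen by symbol (Hist1h to Hist4h), which gave 70 of the 55421 genes in the count table: 6 H1, 20 H2A, 19 H2B, 12 H3 and 13 H4 genes, among them 3 pseudogenes. The samples were single C57BL6 mouse embryos at the 2-cell stage, collected 26 to 28 hours after fertilization, 24 labelled WT and 24 labelled K49A. K49A is a change of an amino acid in protamine 1, with which sperm compact their DNA in place of histones. The labels name neither the carrier parent nor the number of parents, and they give no genotype of the embryo beyond K49A, so some embryos may share parents and a p-value covers embryo-to-embryo spread only. Libraries with at least 100000 counts were used, 12 WT (421301 to 5309505 counts) and 17 K49A (105627 to 4947276 counts); of these, 11 WT and 14 K49A libraries had at least 1000000 counts. Of the K49A embryos, 22, 23 and 24 carry the word dot in their titles, which the labels do not explain. Wells of WT embryos lay in plate rows 1 to 4 and those of K49A in rows 5 to 8; row and label cannot be told apart.

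Most replication-dependent histone mRNAs are made in S phase, when new DNA needs new nucleosomes. Their 3' end is not a poly(A) tail: it is formed by a cut after a short stem-loop, which is bound by the stem-loop binding protein SLBP. Smart-seq2 starts its copies from poly(A), so the libraries see polyadenylated forms, and a stretch of adenosines inside a transcript can also be primed. A low value below is a low value for such RNA and not for all histone mRNA of the embryo. A level in a whole embryo also does not tell fewer cells with the RNA from less RNA per cell.

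The stem-loop and the bases before it are shown for 6 members, since the 2 members with the highest levels differ from the rest there. The stem-loop match is in capitals, and the 15 bases before it are in lower case. The sequences are from GENCODE M21 transcripts (GRCm38) in the sense of the gene, and positions are those of the gene.
Hist1h2ap: aagaaaaaaaaaaaaGGCTCTTTTCAGAGC
Hist1h2ao: aagaaaaaaaaaaaaGGCTCTTTTCAGAGC
Hist1h2bj: gacaccaaatccaaaGGCTCTTTTCAGAGC
Hist3h2ba: cgcccccaacccaaaGGCTCTTTTCAGAGC
Hist2h2aa1: gcgagctcctaaaaaGGCTCTTTTCAGAGC
Hist1h4h: acctacaaaaccaaaGGCCCTTTTCAGGGC
Hist1h2ap (chr13:21833026-21833507, minus strand) and Hist1h2ao (chr13:21810465-21810944, plus strand) code for H2A, and 93.1% of the 50-base words of Hist1h2ap also occur in Hist1h2ao. Hist1h2bj (chr13:22043214-22043676, plus strand) and Hist3h2ba (chr11:58948920-58949533, plus strand) code for H2B. Hist2h2aa1 (chr3:96245497-96246082, plus strand) codes for H2A, and Hist1h4h (chr13:23531050-23531519, plus strand) codes for H4.

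A stem-loop match (GG, any 2 bases, C, TTTT, any base, AG, any 2 bases and C, on the transcript strand and after the coding part) was found in the annotated transcript of 45 of the 70 members. In 27 of them it read GGCTCTTTTCAGAGC, as in Hist1h2ap. The searched letters occurred anywhere in 0.195% of all 141767 annotated transcripts. In 13 members the gene model ended at the end of the coding part, so no 3' end could be read. The 3 pseudogenes have no annotated coding part, so a match could not be found in them either. A poly(A) signal (AATAAA or ATTAAA in the last 40 bases) stood in 17 members, 13 of which also had the stem-loop match; 32.6% of all transcripts had such a signal.

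Both features were set beside the levels. Of the 45 members with a stem-loop match, only Hist1h2ap and Hist1h2ao had 10 or more adenosines directly before it, 12 in each. The other 43 had at most 7, with a median of 3, and the gene with 7, Hist1h3c, had a median TPM of 0. Hist1h2ap and Hist1h2ao had the highest median TPM of all members, 228 and 39.8, against at most 23.3 in the other 43. The pair is near-identical in sequence and is not a pair of independent observations. Outside the stem-loop, an adenosine run of 10 or more also stood in Hist1h2ac and Hist1h2be, whose median TPM was 0.9 and 0; such a run was found in 7.2% of all transcripts. The 17 members with a poly(A) signal did not lead the levels: the highest of them was Hist3h2ba at a median TPM of 17.9, and 12 of the 17 had a median above 0, against 18 of the 53 members without a signal. Reads were not analysed here, and where the counted fragments began was not tested.

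**Figure D1:**
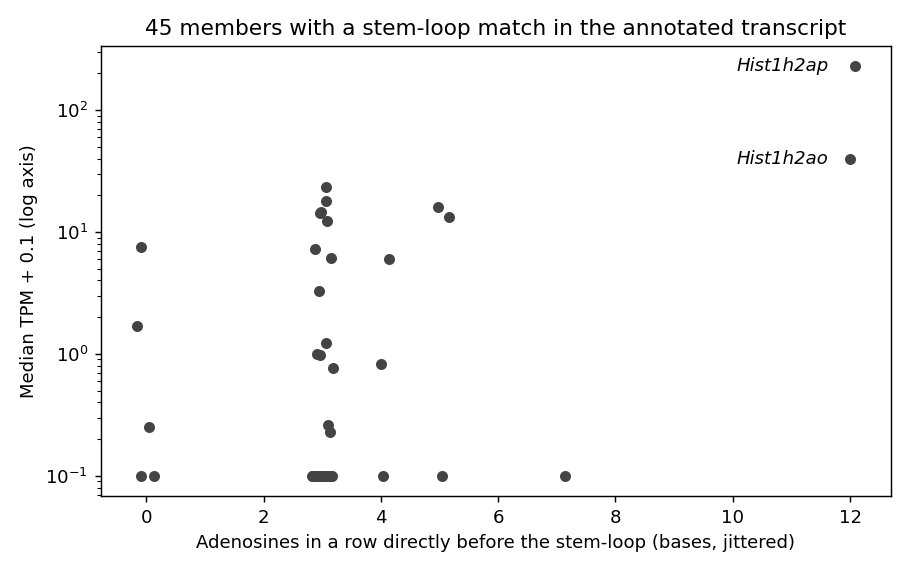
Median TPM over 29 embryos (vertical log axis, TPM + 0.1) against the number of adenosines in a row directly before the stem-loop (horizontal axis, bases, with a small random shift) for 45 clustered histone genes, 1 point a gene. Hist1h2ap and Hist1h2ao, with 12 adenosines each, stand at 228 and 39.8, and no other gene has more than 7.

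Levels of the members were low and uneven. A count was found for 69 of the 70 members in at least 1 of the 29 embryos, Hist2h2ab being at 0, but 40 members had a median TPM of 0. An embryo had counts for 14 to 41 members, with a median of 31 in WT and 33 in K49A. The summed counts of all 70 members in an embryo ranged from 94 to 2223, with a median of 451.

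**Figure D2:**
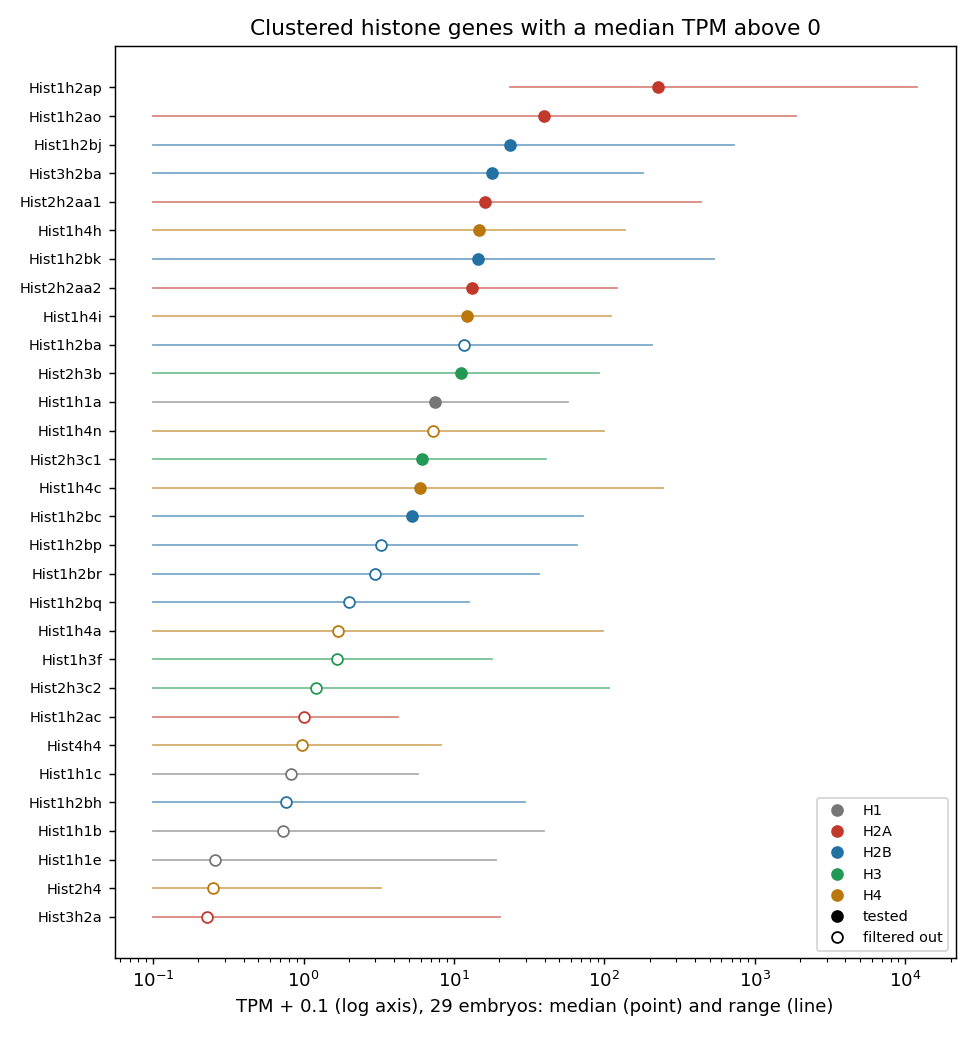
Median (point) and range (line) of TPM + 0.1 on a log axis over 29 embryos for the 30 clustered histone genes with a median TPM above 0, coloured by histone type; filled points entered the test of K49A against WT. Hist1h2ap leads at 228, and the next member, Hist1h2ao, stands at 39.8.

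By histone type, H2A took the largest share of the summed TPM, with a median of 56.4% (range 25.9% to 93.7%) over the 29 embryos. H2B followed at 19.2%, H4 at 10.6%, H3 at 5.37% and H1 at 2.01%. Without Hist1h2ap and Hist1h2ao the H2A share was 20.4% and H2B led at 40.1%, with H4 at 20.2%, H3 at 13.2% and H1 at 4.54%. Hist1h2ap alone held 7012 of the 17837 member counts, a median of 23.6% of the member counts of an embryo with a range of 3.93% to 75.1%. The median share of Hist1h2ap was 24.7% in WT and 23.6% in K49A.

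H2A members. Hist1h2ap had counts in all 29 embryos, and Hist1h2ao had counts in 28. Hist1h2ao held a median of 13.96% of the counts of this pair; the 2 genes share most of their sequence, so the division of counts between them is uncertain. Hist2h2aa1 had a median TPM of 15.9 and Hist2h2aa2 of 13.2. Every 50-base word of Hist2h2aa2 also occurs in Hist2h2aa1 and in the overlapping model Gm20634, so these genes are uncertain as well. Hist1h2aa, a testis and germline form, had 56 counts in 13 embryos and a median TPM of 0. Hist3h2a had 134 counts in 17 embryos, 50 of them in WT embryo 5, and a median TPM of 0.13.

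H2B members. Hist1h2bj led at a median TPM of 23.3, ahead of Hist3h2ba at 17.9 and Hist1h2bk at 14.3. With counts per kilobase of the annotated transcript and per 1000000 in place of TPM, Hist3h2ba was ahead, at a median of 8.32 against 6.97 for Hist1h2bj. Hist1h2ba, a testis and germline form of H2B, was counted in 25 embryos, 10 of 12 WT and 15 of 17 K49A. It had 146 counts in all and a median TPM of 11.5. It did not pass the filter on low counts, with a median of 3.5 counts in WT embryos and 4 in K49A embryos. Of its 50-base words 38.2% also occur in Hist1h2bj, so its counts are uncertain as well. Hist1h2bc had a median TPM of 5.15, and its annotated transcript had neither the stem-loop match nor a poly(A) signal. The pseudogene Hist3h2bb-ps had 5 counts in 3 embryos.

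H3, H4 and H1 members. Of the H3 genes, Hist2h3b had a median TPM of 10.99 and Hist2h3c1 of 6.01; all 50-base words of Hist2h3c1 also occur in another annotated gene. Of the H4 genes, Hist1h4h stood at 14.6, Hist1h4i at 12.2 and Hist1h4c at 5.88. Hist4h4, the H4 gene outside the other loci, was counted in 28 embryos at a median TPM of 0.88. Hist1h1a led the linker histones at a median TPM of 7.37. Hist1h1t, the testis linker histone, had 1 count in 1 WT embryo.

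The comparison of K49A with WT asks whether embryos of the 2 labels differ in these transcripts. Of the 70 members, 14 passed the filter on low counts. None of the 14 was called higher or lower in K49A by edgeR's quasi-likelihood test at an adjusted p of 0.05, where 0.0% of the 12456 genes tested were called higher and 0.0161% lower. At an unadjusted p under 0.05, 6 of the 14 were higher and 0 lower, with 6.25% and 1.49% of all genes. DESeq2 also called 0 of the 14 in either direction, with 0.594% of all genes called higher and 0.0883% lower; at an unadjusted p under 0.05 it gave 6 higher and 0 lower, with 9.86% and 2.1% of all genes. Without the filter edgeR called 2 of 69 members higher, Hist1h2ae and Hist1h2an, and 0 lower, with 2.14% and 1.51% of all genes; both have WT counts near 0, at 6 and 0 counts in all. The log2 fold change was positive in 12 of the 14, as in 58.4% of all genes, with a median of 1.41 over the members and 0.11 over all genes.

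CPM below are counts per 1000000 after TMM scaling. Hist1h2ap ranged from 7.51 CPM over a median of 41.0 to 245.4 CPM in WT, and from 4.47 over 43.7 to 6632 CPM in K49A. The medians were close, the groups overlapped, and the 4 highest embryos were K49A embryos 14, 8, 22 and 15. The mean was 60.1 ± 64.5 CPM (SD, n = 12) in WT and 531 ± 1591 CPM (SD, n = 17) in K49A, a log2 fold change of 3.13 ± 0.94 (SE; edgeR adjusted p = 0.335).

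Hist1h2ao ranged from 0 over a median of 5.60 to 36.9 CPM in WT, and from 0.70 over 6.16 to 1025 CPM in K49A. The same 4 K49A embryos were above every WT embryo, and the other 13 overlapped with WT. The log2 fold change was 3.18 ± 0.96 (SE; edgeR adjusted p = 0.335).

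Hist1h2bj ranged from 0 over a median of 2.92 to 32.9 CPM in WT, and from 0 over 2.66 to 272 CPM in K49A. K49A embryos 22, 3 and 14 were above the highest WT embryo. K49A against WT gave 2.28 ± 0.96 on the log2 scale (SE; edgeR adjusted p = 0.53).

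Hist3h2ba ranged from 0 over a median of 7.73 to 38.5 CPM in WT, and from 1.4 over 3.90 to 115.5 CPM in K49A. The median was lower in K49A, while K49A embryos 22 and 3 were above every WT embryo. The log2 fold change was 0.92 ± 0.71 (SE; edgeR adjusted p = 0.856).

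Hist2h2aa1 ranged from 0 over a median of 3.65 to 31.3 CPM in WT, and from 0 over 5.60 to 255.7 CPM in K49A. K49A embryos 22, 3 and 15 were above every WT embryo. On the log2 scale the difference was 2.12 ± 0.95 (SE; edgeR adjusted p = 0.557).

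Hist1h4h ranged from 0 over a median of 1.69 to 10.5 CPM in WT, and from 0 over 2.42 to 70.5 CPM in K49A. K49A embryos 3, 14, 22 and 8 were above every WT embryo. These values rest on few counts, 29, 7, 2 and 21, against 15 in WT embryo 19, the highest of WT. The fitted log2 change was 1.21 ± 0.86 (SE; edgeR adjusted p = 0.842).

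**Figure D3:**
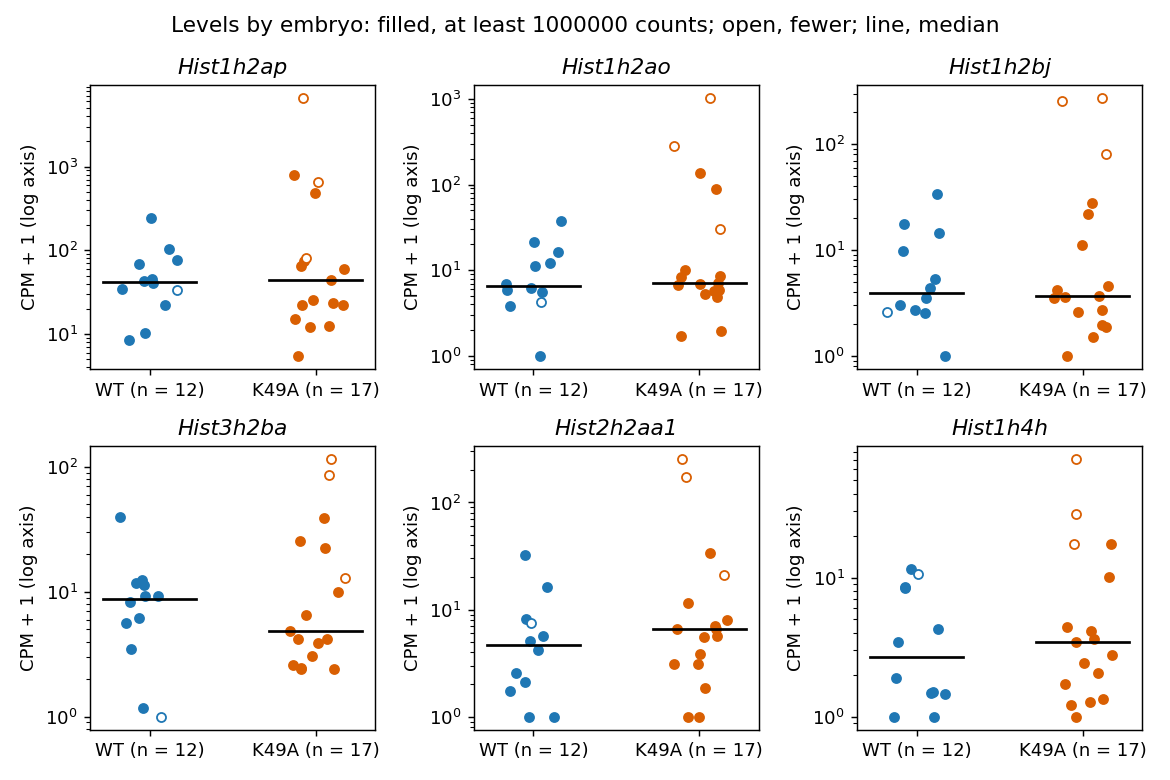
CPM + 1 (log axis) in each of 12 WT and 17 K49A embryos for the 6 tested members with the highest median TPM; filled points are libraries with at least 1000000 counts, open points have fewer, and the line is the group median. The highest point of Hist1h2ap, at 6632 CPM, is an open K49A point, and the group medians are 41.0 and 43.7 CPM.

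The other 8 tested members had a smaller median TPM. In CPM this did not hold for all of them: Hist2h3c1 had medians of 13.9 in WT and 10.2 in K49A. The log2 fold change was 2.60 ± 0.90 for Hist1h4c (edgeR adjusted p = 0.422), whose K49A embryos reached 247 CPM against 16.1 in WT. It was 1.84 ± 0.98 for Hist1h2bk, 1.55 ± 0.73 for Hist1h1a and 1.28 ± 0.84 for Hist1h4i. Values of 0.66 ± 0.95 for Hist2h3b and 0.44 ± 0.87 for Hist2h2aa2 were below their SE. Only Hist2h3c1 (-0.38 ± 0.68) and Hist1h2bc (-1.09 ± 0.64) were negative, and in both the highest embryo was WT embryo 5. Over these 8 members the edgeR adjusted p ranged from 0.422 to 0.969.

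The difference between the groups lay in few embryos with low totals. The summed level of all 70 members ranged from 76.97 over a median of 146 to 684 CPM in WT, and from 62.5 over 114 to 8829 CPM in K49A. K49A embryos 14, 22, 3, 8 and 15 stood at 8829, 2755, 1670, 1238 and 959 CPM, above every WT embryo, and their libraries held at most 2124573 counts. The other 12 K49A embryos lay between 62.5 and 236 CPM and held at least 3107009 counts. In WT the highest sums, 684 and 433 CPM, were those of embryos 5 and 19, with 1064553 and 1842308 counts, while WT embryo 10 with 421301 counts had 151 CPM.

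**Figure D4:**
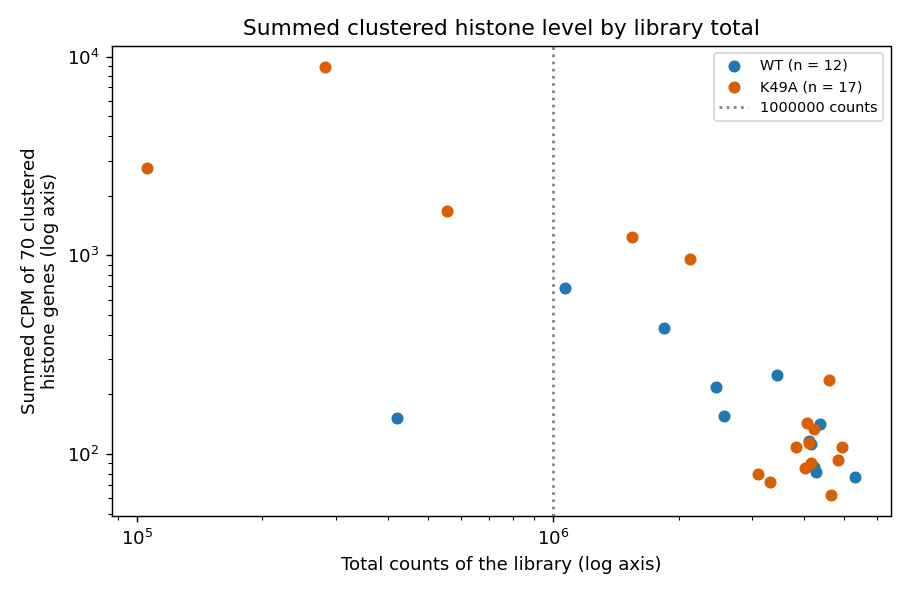
Summed CPM of the 70 clustered histone genes (vertical log axis) against the total counts of the library (horizontal log axis), 1 point an embryo, 12 WT and 17 K49A. The 5 embryos above the WT range are K49A libraries of at most 2124573 counts.

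The 6 leading members fell with library total across the 29 embryos. Pearson's r between log2(CPM + 1) and log10 total counts was -0.67 for Hist1h2ap (permutation p = 0.00064, adjusted over the 6 relations 0.00077), with Spearman's rho -0.50 (permutation p = 0.0062, adjusted 0.0062). For the 6 members r ranged from -0.76 to -0.50 and rho from -0.69 to -0.50, with adjusted permutation p up to 0.0056 and 0.0062. Without K49A embryos 14 and 22, the libraries farthest from the median total, r was -0.43 for Hist1h2ap (adjusted permutation p = 0.034) and ranged from -0.63 to -0.32 over the 6. For Hist3h2ba it was -0.32 there, with an adjusted permutation p of 0.11. In the 25 libraries with at least 1000000 counts r was -0.66 for Hist1h2ap and -0.59 for Hist3h2ba, and it ranged from -0.69 to -0.38 over the 6. Within K49A r was -0.74 and within WT -0.37 for Hist1h2ap, and for Hist3h2ba it was -0.75 and 0.18. Within plate columns 3, 4 and 5 r for Hist1h2ap was -0.56, -0.75 and -0.79, and in column 6 it was 0.40, with 6 embryos in each. CPM has the library total in its denominator, so the axes are not independent, and the origin of the relation was not tested.

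With the 25 libraries of at least 1000000 counts, 12 members were tested and 0 were called by edgeR, with 0.0% of all 12577 genes called higher and 0.0318% lower. At an unadjusted p under 0.05, 0 members were higher and 1 was lower, Hist1h2bc, with 3.5% and 1.83% of all genes. The median log2 fold change of the members was -0.25, against 0.08 for all genes, and 4 of the 12 were positive, with 57.3% of all genes. The positive ones were Hist1h2ap at 0.93 ± 0.73, Hist1h2ao at 0.95 ± 0.77 and Hist1h1a at 0.76 ± 0.70, each with an edgeR adjusted p of 0.968, and Hist1h1c, a linker histone that did not pass the filter over all 29 embryos, at 0.12. Hist1h4c was at -0.29 ± 0.60, Hist1h2bj at -0.53 ± 0.76 and Hist1h2bc at -1.82 ± 0.61 (edgeR adjusted p = 0.892). In these libraries Hist1h2ap had a median of 42.1 CPM in WT against 23.3 in K49A. They still held K49A embryos 8 and 15, with Hist1h2ap at 788 and 490 CPM. The other K49A libraries among them had at most 73.0 CPM.

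**Figure D5:**
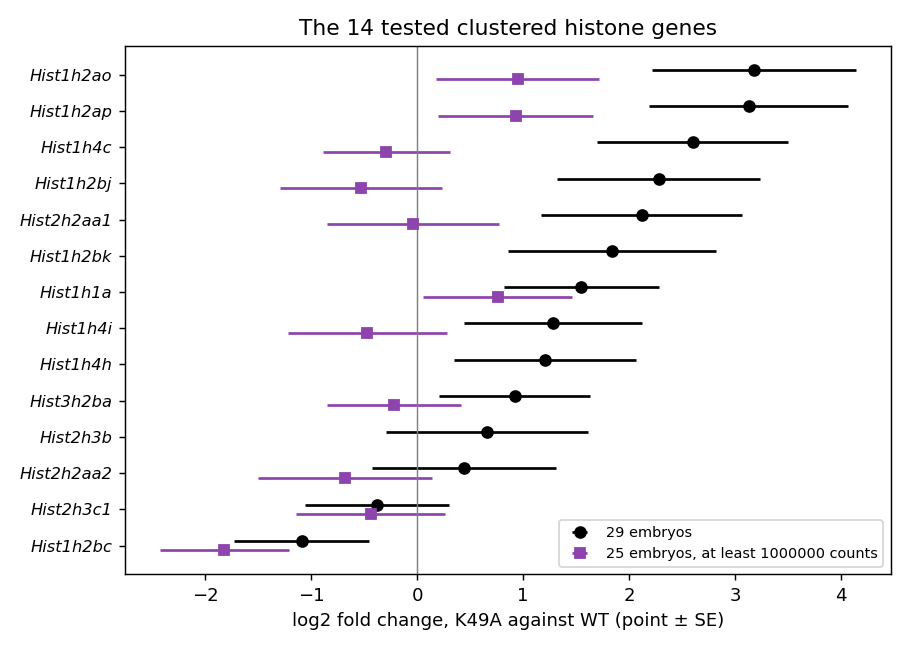
Log2 fold change of K49A against WT (point ± SE) for the 14 tested members, over 29 embryos (circles) and over the 25 embryos with at least 1000000 counts (squares, where the gene was tested). Hist1h4c moves from 2.60 to -0.29, and Hist1h2ap from 3.13 to 0.93.

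Within plate columns the direction was not shared. For Hist1h2ap the mean log2(CPM + 1) of K49A minus WT was 5.32 in column 2, 2.36 in column 3 and 0.49 in column 4. It was -0.91 in column 5 and -1.39 in column 6. Hist1h2ao was also negative in columns 5 and 6, at -1.03 and -1.26. Hist1h2bj, Hist3h2ba and Hist2h2aa1 were negative in column 5 only, at -1.39, -1.14 and -0.12. Hist1h4h was negative in column 6 only, at -0.59. These columns held 2 or 3 WT and 2 to 4 K49A embryos each. Columns 2, 3 and 4 hold K49A embryos 14, 8, 3, 15 and 22, the 5 with the highest sums.

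Markers of other cells were read in the same libraries. Of 14 blood cell genes 3 were at 0 in all 29 embryos, the adult beta globins Hbb-bs and Hbb-bt and Tyrobp of myeloid cells. The summed level of the blood list was 19.3 to 85.7 CPM in WT and 7.76 to 742 CPM in K49A. In the 5 K49A embryos with the highest histone sums it was 59.7 to 742 CPM with a median of 377, and in the other 12 it was 7.76 to 224 CPM with a median of 73.0. Of 20 cumulus and granulosa genes 0 were at 0 throughout, and their sum was 64.2 to 445 CPM in WT and 75.5 to 424 CPM in K49A. Few genes made up most of this sum: Nr5a2, Amhr2 and Bmpr2 had WT medians of 87.7, 40.1 and 35.2 CPM. Every other gene of the list had a WT median of at most 5.52 CPM. The highest K49A values were 111 CPM for Inha, 110 for Sparc, 41.2 for Foxl2 and 23.1 for Inhba. In WT these genes reached 0, 18.9, 2.59 and 0 CPM. Nr5a2, Bmpr2, Fshr, Ptgs2 and Lhcgr had their highest values in WT. Of 11 sperm and spermatid genes 3 were at 0 throughout, with sums of 41.2 to 112 CPM in WT and 29.5 to 275 CPM in K49A. Odf2 had a WT median of 59.2 CPM, and every other gene of that list had a WT median of at most 3.49 CPM. The highest K49A values were 214 CPM for Prm2, 49.5 for Tnp2 and 23.8 for Tnp1, against 38.7, 0 and 0 in WT. For Odf2 the highest values were 99.6 CPM in K49A and 107.9 in WT. Markers of the labelled stage were present: 19 genes of the 2-cell stage summed to 406 to 3953 CPM in WT and 107 to 3268 CPM in K49A, and 20 oocyte transcripts to 5319 to 20370 and 3634 to 28610 CPM. In K49A embryos 14, 22 and 3, which had the highest histone sums, the 2-cell genes summed to 373, 107 and 248 CPM, below every WT embryo. K49A embryo 4 was also below every WT embryo, at 210.5 CPM, with a histone sum of 236 CPM and 4585539 counts. In K49A embryos 14, 22 and 3 the sperm and spermatid genes summed to 159, 173 and 275 CPM, against at most 112 CPM in the other 26 embryos. K49A embryos 8 and 15 had 2-cell sums of 1090 and 2424 CPM and sperm sums of 29.5 and 53.2 CPM, within the WT range or below it. The part of these markers and of depth in the histone values was not tested.

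The genes that act on histone mRNA were read by their lists. Of the 24 genes of histone mRNA 3' end processing, all 24 were tested, 13 were positive and 0 were called by edgeR in either direction, with a median log2 fold change of 0.13. Slbp, which codes for the stem-loop binding protein, stood at a median of 259 CPM in WT against 285 in K49A (0.49 ± 0.39 on the log2 scale, edgeR adjusted p = 0.873). The smallest p in this list belonged to Snrpg (2.37 ± 0.76, adjusted p = 0.337), Snrpf (1.77 ± 0.66) and Snrpe (1.48 ± 0.64), which code for core proteins of small nuclear ribonucleoproteins. In the libraries with at least 1000000 counts these were at 0.16, 0.39 and 0.16.

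Of the 14 tested genes of histone gene transcription and the histone locus body, 9 were positive and 0 were called, with a median of 0.04. Yy1 was at -0.73 ± 0.37, Cdk2, the kinase of S phase entry, at -0.59 ± 0.51 and Coil, which codes for coilin, at 0.55 ± 0.54. Of the 13 tested genes of decay and uridylation, 8 were positive and 0 called, with a median of 0.08. Tut7, a uridylyl transferase, was at 0.68 ± 0.41, Lsm4 at 0.57 ± 0.52 and Dcp2, a decapping enzyme, at 0.36 ± 0.33. Of the 16 tested genes of poly(A) addition and binding, 4 were positive and 0 called, with a median of -0.09. Cpeb3 was at -0.60 ± 0.35, Papola, the canonical poly(A) polymerase, at -0.39 ± 0.32 and Pabpc4 at -0.34 ± 0.37.

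Most replacement histone genes outside the clusters have ordinary polyadenylated mRNAs. Of the 20 genes of this list, 5 had a median TPM above that of Hist1h2ap (H3f3b, H2afz, H3f3a, H2afv and Cenpa) and 8 had a median of 0. H3f3b, which codes for the replacement histone H3.3, had a median TPM of 1188, H2afz (H2A.Z) of 1063, H3f3a of 394 and H1foo, the oocyte linker histone, of 164, against 228 for Hist1h2ap. Of the 11 tested genes of this list, 6 were positive and 0 called by edgeR, with a median log2 fold change of 0.02. H3f3b was at -0.07 ± 0.33, H2afz at -0.04 ± 0.46, H3f3a at -0.38 ± 0.35 and H1foo at -0.10 ± 0.57. The smallest p was that of H2afj (2.34 ± 0.78, edgeR adjusted p = 0.395), which was at 0.34 in the libraries with at least 1000000 counts; H2afv stood at 0.62 ± 0.54 and H2afx at 0.45 ± 0.37. Over the 5 lists, which hold 77 tested genes, 40 genes or 51.9% were positive, against 58.4% of all genes. An unadjusted p under 0.05 with higher values in K49A was found for 4 of the 77, or 5.19%, against 6.25% of all genes, and with lower values for 0, against 1.49%.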

How the data were processed

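Each of 48 embryos gave 1 Smart-seq2 library. The submitters' processing notes list RSEM 1.3.3, STAR 2.7.8a, cutadapt 2.3 and FastQC 0.11.8; their settings, the annotation release and strand use are not given in the sources used here. The authors deposited expected counts, all whole numbers, and TPM. RSEM, named without its role, can divide reads among near-identical genes, and 34 of the 70 members share at least 50% of their 50-base words with another gene.

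Here, 12 WT and 17 K49A libraries with at least 100000 counts were compared with edgeR 4.0.16 (filterByExpr, TMM, robust quasi-likelihood test, Benjamini-Hochberg over 12456 genes, threshold 0.05; R 4.3.3), with DESeq2 1.42.0 as an alternative. SE is |log2 fold change| over the root of F. The code was tested on simulated data. Relations with depth used 100000 permutations, 2-sided, with a pseudocount of 1. Sequences come from GENCODE M21 (GRCm38). All tested members are named, with testis and germline forms, Hist3 and Hist4 members, and the 3 genes of each list with the smallest p. Per-embryo values are given for the 6 tested members with the highest median TPM. Members and lists were chosen with earlier results of these data known. Alternatives covered normalization, filter, tool, depth, plate column, replicate number, the 3 embryos titled dot and left-out embryos.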

Additional observations from a re-analysis of the deposited data

Results flagged for a closer look

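The 19 libraries under 100000 counts entered no comparison, and 6 of them held a count of a clustered histone gene. WT embryo 3, the largest of them with 39135 counts, had 252 such counts, above the 3 counts that a count of 0 allows. This was 0.644% of its counts (Wilson 95% interval 0.569% to 0.728%, counting error only), and 149 of the 252 were from Hist1h2ap. In the 29 compared libraries the share ranged from 0.00768% over a median of 0.013% to 0.785%. The highest compared WT library, WT embryo 5, was at 0.0801%, and the 2 highest K49A libraries, embryos 14 and 22, were at 0.785% and 0.316%, so WT embryo 3 lay above every compared library but K49A embryo 14. The other 18 small libraries held 43 such counts in all, at most 17 in a library.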

How the results depend on the processing

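No alternative called a clustered histone gene lower, and one called any higher: without the filter on low counts, where 69 members were tested, 2 were called higher, Hist1h2ae (80 counts in 12 of 17 K49A embryos, 6 in 2 of 12 WT) and Hist1h2an (28 counts in 4 K49A embryos, 0 in WT), with 2.14% of all genes called higher. No gene of the 5 pathway lists was called in either direction under any of these alternatives. The median log2 fold change was -0.25 in libraries with at least 1000000 counts, and 1.06 to 1.75 with each embryo left out. In libraries with at least 1000000 counts the sign turned for Hist1h2bj (-0.53), Hist3h2ba (-0.22), Hist2h2aa1 (-0.04), Hist2h2aa2 (-0.68), Hist1h4i (-0.47) and Hist1h4c (-0.29); the cause was not tested. Hist2h3b was at -0.13 with plate column as a factor and, with each embryo left out, between -0.16 (without K49A embryo 3) and 1.06; Hist2h2aa2 lay between -0.19 (without K49A embryo 14) and 0.98. Without K49A embryo 14 the log2 fold change of Hist1h2ap was 1.29, that of Hist1h2ao 1.73 and that of Hist1h4i 0.78; without K49A embryo 22 that of Hist1h2bk was 0.78, of Hist2h2aa1 1.36 and of Hist3h2ba 0.51; without K49A embryo 3 that of Hist3h2ba was 0.51; without WT embryo 5 that of Hist1h2bc was -0.40 and of Hist2h3c1 -0.02. Hist1h2ap was at 1.88 with DESeq2 and 1.08 with plate column as a factor, and Hist1h2ao at 1.96 and 1.25. Without the 3 embryos titled dot 0 members were called, the median was 1.27, Hist1h2ap was at 3.32 and Hist1h2bk at 0.97. Replicate numbers shared by 9 pairs did not pair the embryos (correlations -0.275 to 0.216, 2 above 0.1; 1 of 18 embryos correlated best with its own number). With the replicate block 0 members were called higher and 0 lower, the median was 0.85, Hist1h2ap was at 0.48 (1.82 in the same embryos without the block), Hist1h4c at 0.86, Hist1h2bj at 0.81, Hist2h3c1 at -1.98 and Hist1h2bc at 0.49. With counts per kilobase in place of TPM the median share of H3 was 8.79% in place of 5.37% and that of H1 3.10% in place of 2.01%; H2A stood at 52.5% and H4 at 11.3%.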
